A study of Mus musculus with 8 samples.

Results

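The hypoxia-responsive genes described here are Hif1a, Bnip3, Bnip3l, Ndrg1, Egln1, Egln3, Vegfa, Higd1a, P4ha1 and Adm. They were taken by symbol, as every probe set on the array whose annotation named 1 of these 10 genes and no other. This gave 22 probe sets for 9 of the genes, out of 22690 probe sets in all and 12394 genes with a probe set of their own. The 3 probe sets for Bnip3l are annotated to Bnip3l and to its pseudogene Bnip3l-ps together, so no probe set named Bnip3l alone. Their values are given under the joint annotation and stay out of every count of members.

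The cells were MCE301, an epithelial line from the mouse colon, made from mice with a temperature-sensitive SV40 large T-antigen as a transgene, which every sample therefore carries. They were grown with 2 mM sodium butyrate for 0, 6, 12 or 24 h, and each of the 4 times was measured on 2 arrays. Whether the pair of arrays at a time stands for separate cultures is not in the labels, so each p-value is set against array-to-array spread alone, possibly technical. No untreated cells were measured at the later times, so butyrate and time in culture cannot be told apart.

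Cells sense oxygen through the hypoxia-inducible factors, or HIFs. Where oxygen is plentiful, prolyl hydroxylases of the EGLN family mark the HIF alpha subunit, the von Hippel-Lindau protein recognises the mark, and the subunit is destroyed. Where oxygen is scarce the subunit persists, pairs with ARNT and binds DNA at a short core sequence near its target genes. The colonic epithelium lies beside a lumen nearly free of oxygen, and butyrate, made there by bacteria, is both a fuel of its cells and an inhibitor of histone deacetylases. Hif1a encodes an alpha subunit that is controlled mainly as a protein, which an array does not measure, and the other genes here are known targets of HIF.

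The values are the deposited signals, linear intensities scaled by the authors to 1 common level on every array. Tests were run in limma on log2(signal + 32), which understates the change of low signals, and a probe set was called where its p, adjusted by Benjamini-Hochberg over the 12440 probe sets that passed a filter on low signals, was under 0.05. To pass the filter, at least 2 of the 8 arrays had to exceed 144.7, the median signal of the whole table. Signals carry the SD of their 2 arrays and log2 changes the SE from limma. The number of arrays limits the precision.

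Of the 22 probe sets, 17 passed the filter, and they stood for 8 genes. The other 5 were the only probe set of Adm, 1 of Hif1a (1431981_at), 1 of Egln3 (1418648_at) and 2 of Higd1a (1416481_s_at and 1448359_a_at). Another 3 passed by exactly 2 arrays. For Egln3 1418649_at and Vegfa 1420909_at these were both 24 h arrays, so a rise at 24 h was part of how they entered the test. For Vegfa 1451959_a_at they were 1 array at 12 h and 1 at 24 h.

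Ndrg1 and Bnip3 were called higher from 6 h on, Egln3 and P4ha1 from 12 h, and Vegfa at 24 h, while Egln1 was lower at 24 h on 1 of its 2 probe sets. Hif1a itself passed the test in no comparison with 0 h, and Adm stayed below a signal of 32 on all 8 arrays. At 6 h, 5 of the 17 tested probe sets were called higher than at 0 h, against 6.68% of all probe sets tested. In limma 0 were called lower, also at an unadjusted p under 0.05, and 5.02% of all probe sets were called lower. At 12 h, 8 were called higher, against 16.0% of all probe sets, and 0 were called lower, against 15.9%; at an unadjusted p under 0.05 limma had 2 lower. At 24 h, 11 were called higher, against 22.1% of all, and 1 lower, against 22.0%.

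These counts lean on Ndrg1, which has 5 of the 17 probe sets. By gene, 2 of the 8 tested had a probe set called higher at 6 h, 4 at 12 h and 5 at 24 h. Over all 7340 genes, with 1 probe set each, 7.83%, 17.2% and 23.5% were called higher. The rules differ, since a member with several probe sets had several chances to be called. The median log2 change of the 17 was 0.32 at 6 h, 0.41 at 12 h and 0.90 at 24 h, beside medians of 0.01, 0.02 and 0.03 over all probe sets tested. With at least 4 arrays required above the median, which leaves out the 3 probe sets that passed by 2 arrays, 8 were called higher and 1 lower at 24 h. Of all probe sets, 2591 were called higher and 2568 lower under that filter, beside 2751 and 2736 under the main one. How many probe sets that filter let through is not given, so these are counts and not shares. The plot of signals by time shows every array.

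**Figure D1:**
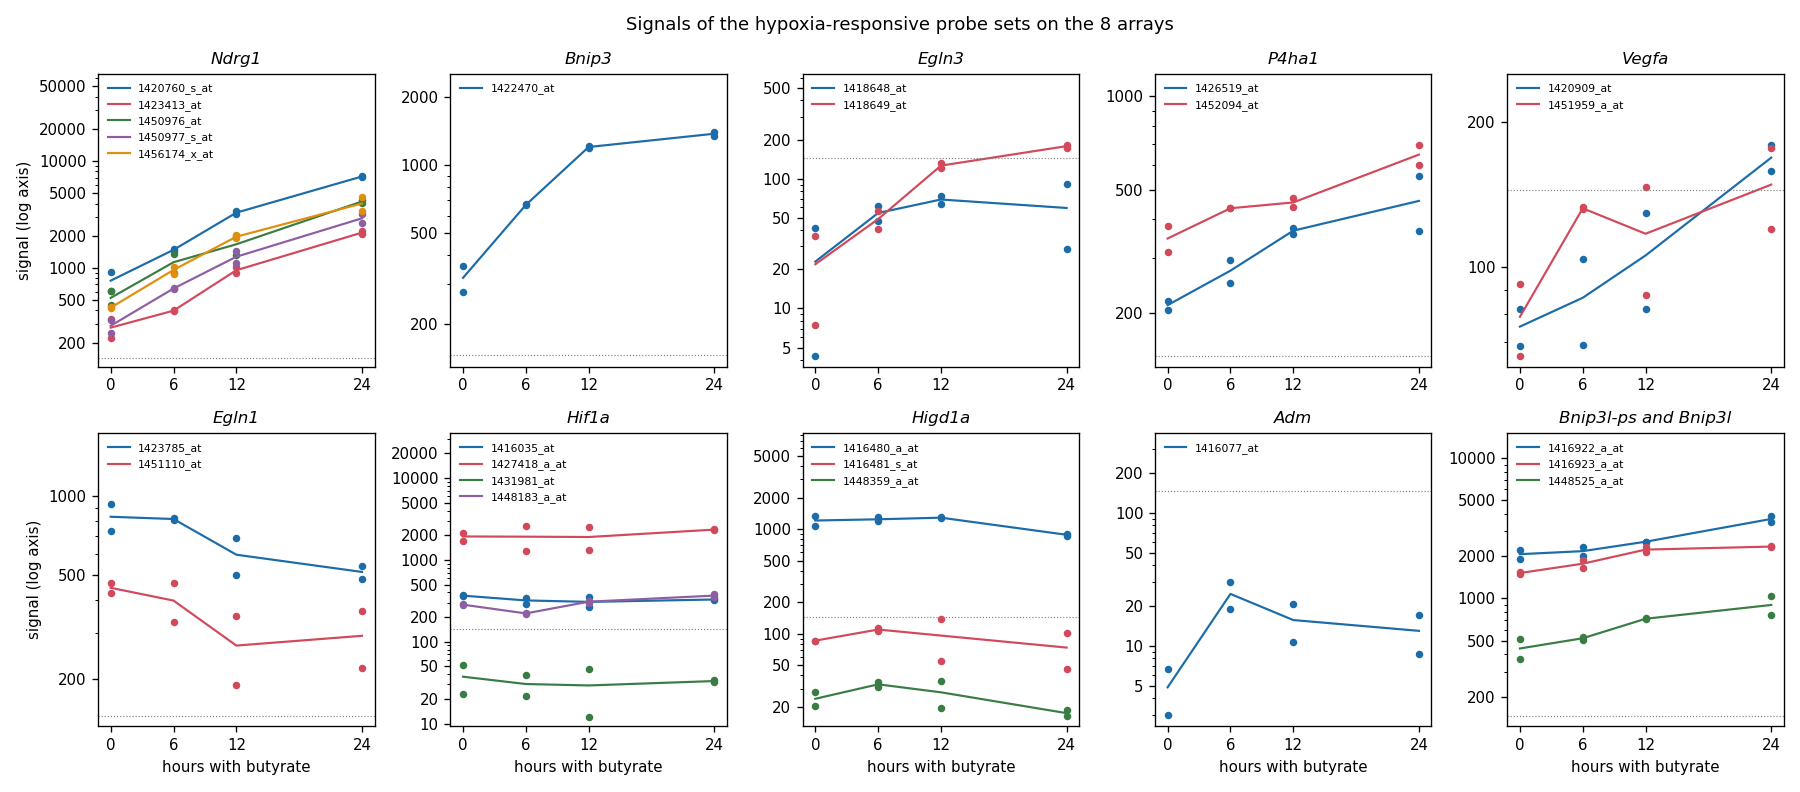
Signals of the 22 probe sets of 9 hypoxia-responsive genes and of the 3 probe sets shared by Bnip3l-ps and Bnip3l, on a log axis, against hours with butyrate. Each point is 1 of the 2 arrays of a time, lines join the means, colours mark probe sets and the dotted line is the median of all values, 144.7. All 5 Ndrg1 lines climb at every step, Bnip3 flattens after 12 h, Egln1 ends lower than it began and Adm lies under the dotted line on every array.

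The labelled cell type held against its markers in part: of 12 epithelial markers 10 were tested, among them Epcam (3690.2 to 5392.5), Cdh1 (1064.5 to 2054.4) and the intestinal genes Krt20 (1119.4 to 18156.3) and Cdx2 (232.8 to 511.7), whereas the intestinal genes Vil1 (2.8 to 40.7) and Cdx1 (2.7 to 7.0) were below the filter. Of 8 fibroblast and 6 endothelial markers 0 were tested, and of 7 immune markers only Csf1r was (207.0 to 868.2). Below a signal of 32 on all 8 arrays were 1 fibroblast, 2 endothelial and 0 immune markers. The summed epithelial markers moved with the rises above, at 94024.9 to 114891.1 at 24 h against 63451.9 to 70757.3 at 0 h. Singly they did not move together: of the 10 tested, 5 were called higher and 2 lower at 24 h, beside 23.5% and 22.6% of all genes. Their log2 changes ran from -0.97 to 3.44, so the sum does not stand for each marker. The immune sum was lower at 24 h, at 515.6 to 618.4 against 847.6 to 1158.5, as Csf1r fell. The fibroblast sum was 343.8 to 389.8 at 24 h against 304.4 to 410.2 at 0 h, and the endothelial sum 218.2 to 271.8 against 116.2 to 170.3. Their part in the results was not tested, and in bulk samples fewer cells of a type and less RNA per cell cannot be told apart. Median signals were 140.1 to 152.8 on the 8 arrays, and the pair of arrays at each time had r = 0.979 to 0.982 across probe sets, which are not independent.

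The stretches before 4 of the transcription start sites are printed. Of these, 3 belong to genes that rose (Bnip3, Egln3 and P4ha1). The other belongs to the oxygen sensor Egln1, called lower at 24 h on 1 of its 2 probe sets. Each is the 250 bases before the start in RefSeq's annotation of GRCm38.p6, read 5′ to 3′ on the strand of the gene. Capitals mark the letters of the HIF core, searched as ACGTG and GCGTG on both strands, so that a core on the opposite strand reads CACGT or CACGC here, and a run of CACGTG is counted on both strands. The windows are chr7:138909507-138909756, minus strand for Bnip3, chr12:54203875-54204124, minus strand for Egln3, chr10:59323046-59323295, plus strand for P4ha1 and chr8:124949255-124949504, minus strand for Egln1.
Bnip3: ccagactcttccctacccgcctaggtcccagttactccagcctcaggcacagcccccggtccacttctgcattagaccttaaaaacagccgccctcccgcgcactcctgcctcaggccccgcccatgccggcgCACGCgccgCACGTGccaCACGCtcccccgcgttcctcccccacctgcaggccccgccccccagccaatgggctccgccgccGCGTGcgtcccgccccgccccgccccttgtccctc
Egln3: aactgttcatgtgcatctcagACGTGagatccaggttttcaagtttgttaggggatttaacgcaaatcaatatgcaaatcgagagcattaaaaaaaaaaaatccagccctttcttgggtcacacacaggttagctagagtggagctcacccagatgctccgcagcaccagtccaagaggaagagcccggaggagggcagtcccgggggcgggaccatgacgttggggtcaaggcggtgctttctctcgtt
P4ha1: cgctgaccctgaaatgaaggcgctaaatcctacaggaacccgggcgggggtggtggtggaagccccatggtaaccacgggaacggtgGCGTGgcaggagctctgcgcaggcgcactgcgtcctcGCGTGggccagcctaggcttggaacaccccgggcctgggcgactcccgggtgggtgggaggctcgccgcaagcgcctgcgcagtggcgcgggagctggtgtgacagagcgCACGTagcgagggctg
Egln1: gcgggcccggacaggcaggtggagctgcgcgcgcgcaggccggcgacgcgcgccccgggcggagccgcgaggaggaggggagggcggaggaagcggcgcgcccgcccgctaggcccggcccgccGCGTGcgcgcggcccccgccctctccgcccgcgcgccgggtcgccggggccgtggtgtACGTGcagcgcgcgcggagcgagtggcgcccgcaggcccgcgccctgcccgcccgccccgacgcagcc

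Bnip3 holds 5 matches, the nearest 31 bases before the start, and 2 of them are 1 CACGTG read on both strands. P4ha1 holds 3, the nearest 12 bases before the start. Egln1 holds 2, at 122 and 64 bases, and Egln3 has a single one at 225 bases. Egln1 and the 3 genes that rose thus all held the letters of the core. RefSeq's table had windows for 8 of the 10 genes, not for Ndrg1 and Bnip3l, and all 8 had at least 1 match in 8 of 9 windows, since Vegfa has a second window with none. Of all 32851 windows of this length, 38.6% held a match, 16.6% ACGTG and 28.2% GCGTG. The genes were picked as known targets, and their windows ranged from 50.8% to 86% G and C against a median of 52.4% over all windows, so the share is a description, and a match is not a site of binding.

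Ndrg1, N-myc downstream-regulated gene 1, is a stress-responsive gene linked to epithelial differentiation and induced by low oxygen. Probe set 1420760_s_at gave 914.6 and 604.7 at 0 h, 1443.4 and 1508.3 at 6 h, 3408.1 and 3169.6 at 12 h, and 7198.4 and 7162.8 at 24 h. Both arrays of each time lay above both arrays of the time before. The log2 change was 0.96 ± 0.20 at 6 h (limma, adjusted p = 0.0138), 2.10 ± 0.20 at 12 h (adjusted p = 0.000116) and 3.22 ± 0.20 at 24 h (adjusted p = 4.13e-06), a 9.29-fold rise at 24 h on the scale of signal + 32.

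The other 4 probe sets of Ndrg1 moved alike. Probe set 1423413_at averaged 2140 ± 120 at 24 h and 276 ± 77.9 at 0 h (SD, n = 2 each). For 1450976_at the means were 4189 ± 188 at 24 h and 524 ± 112 at 0 h. Probe set 1450977_s_at averaged 2913 ± 436 at 24 h and 287 ± 55.5 at 0 h. All were called at 24 h, as was 1456174_x_at, with 4009 ± 879 at 24 h and 424 ± 7.78 at 0 h. Over the 5, the 24 h change was 2.84 to 3.22 on the log2 scale, or 7.17-fold to 9.29-fold, and they stood between rank 19 and rank 38 of 12440 probe sets ordered from the largest rise. Their values over the 8 arrays correlated at r = 0.948 to 0.992 in the 10 pairs, which is a description, since they share the arrays and the transcript. An s or x in the name marks a design whose probes can match more than 1 transcript; the 2 without it, 1423413_at and 1450976_at, changed by 2.84 ± 0.19 and 2.94 ± 0.25.

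Ndrg1 also kept climbing between the later times. From 6 h to 12 h, 4 of its 5 probe sets were called higher, by 0.94 to 1.19 on the log2 scale (limma, adjusted p = 0.0176 to 0.0387). Of all 17 member probe sets 5 were called higher at 12 h against 6 h, the fifth being Bnip3, where 1.25% of all probe sets were; 0 were called lower, with 1 at an unadjusted p under 0.05, and 1.17% of all were. Between 12 h and 24 h, the 5 member probe sets called higher were the 5 of Ndrg1, by 1.004 to 1.34 (adjusted p = 0.00986 to 0.0162), where again 1.25% of all probe sets were; 0 were called lower, with 1 at an unadjusted p under 0.05, and 2.95% of all were. The calls of these steps depended on the arrays fitted and on the filter: some or all were lost when 1 array was left out. Without the filter on low signals, the number of member probe sets called was 0 for both steps. The changes themselves kept their direction. With 1 array left out, the called Ndrg1 probe sets changed by 0.77 to 1.28 from 6 h to 12 h and by 0.78 to 1.63 from 12 h to 24 h.

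The calls of the early rise of Ndrg1 leaned on an array at 0 h and on the filter. At 6 h, 4 of the 5 probe sets were called, and the fifth, 1423413_at, changed by 0.50 ± 0.19 (limma, adjusted p = 0.124). Without the filter on low signals, 1420760_s_at, 1450976_at and 1450977_s_at were no longer called at 6 h, whereas 1456174_x_at was. Without array 2 of 0 h, 1420760_s_at, 1450976_at and 1450977_s_at no longer passed at 6 h (adjusted p = 0.0989, 0.168 and 0.0715), whereas 1456174_x_at passed without any 1 array. Probe set 1420760_s_at was also lost without array 2 of 6 h (adjusted p = 0.0579), and 1450976_at without array 1 of 0 h (0.0575) or array 1 of 6 h (0.138). At 12 h and 24 h all 5 passed without any 1 array.

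Ndrg1 has 3 relatives in the mouse, and all rose with it. Ndrg2, which is tied to growth arrest and differentiation, had 119.9 and 111.9 at 0 h, 181.6 and 183.1 at 6 h, 266.0 and 214.1 at 12 h, and 370.9 and 391.7 at 24 h. Ndrg3 had 193.7 and 308.6, then 437.6 and 470.7, then 507.2 and 659.5, and 603.7 and 736.8 at the same times. Ndrg4, known from heart and neurons and measured by a probe set with the s suffix described above, had 423.4 and 375.4, then 960.2 and 660.2, then 1884.8 and 1271.2, and 2554.2 and 1916.0. For each of the 3, both 24 h arrays lay above both 0 h arrays. Ndrg2 passed the filter only through arrays after 0 h. At 24 h the log2 changes were 1.48 ± 0.16 for Ndrg2, 1.33 ± 0.22 for Ndrg3 and 2.38 ± 0.25 for Ndrg4 (limma, adjusted p = 8.01e-05, 0.000992 and 5.43e-05), all called at 12 h as well. At 6 h Ndrg3 and Ndrg4 were called too (adjusted p = 0.043 and 0.034), and both calls were lost without array 1 of 0 h (0.269 and 0.112) or array 1 of 6 h (0.105 and 0.173), Ndrg3 also without array 2 of 6 h (0.14) and Ndrg4 also without array 2 of 0 h (0.17). Over 18 changes of the processing or of the arrays fitted, the 6 h call was lost in 7 for Ndrg3 and in 4 for Ndrg4. The part of shared sequence between these genes and probes was not tested.

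**Figure D2:**
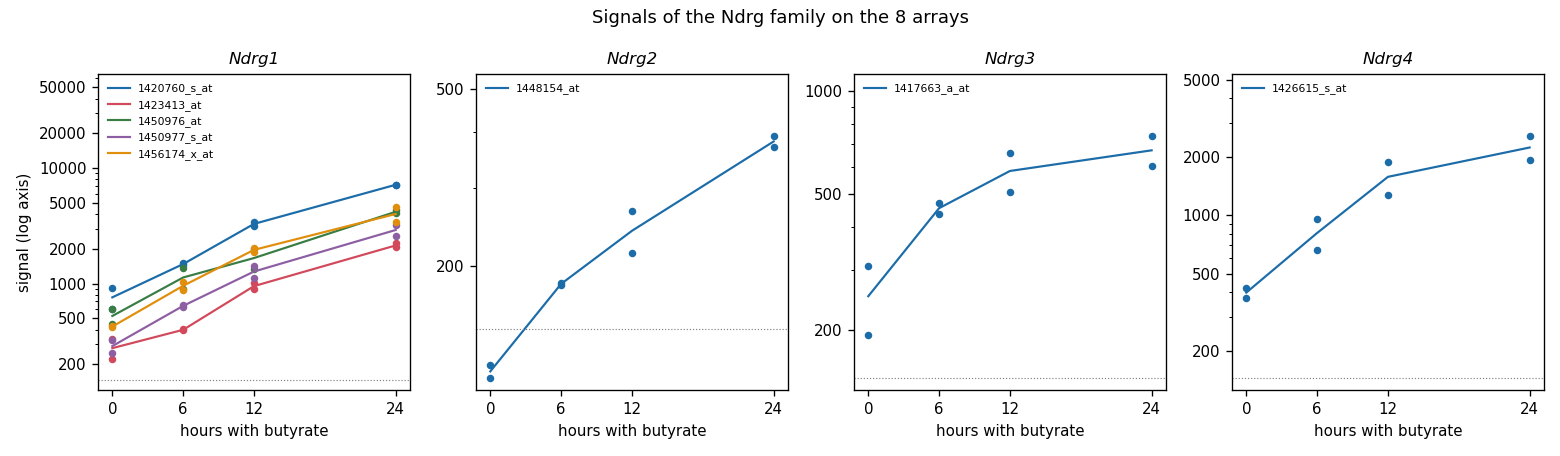
Signals of Ndrg1 (5 probe sets) and of Ndrg2, Ndrg3 and Ndrg4 (1 probe set each, the tested one with the highest mean) on a log axis, against hours with butyrate. Points are the 2 arrays of a time, lines join the means and the dotted line is the median of all values, 144.7. In all 4 panels the 24 h arrays lie above the 0 h arrays, and Ndrg2 lies under the dotted line at 0 h.

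Bnip3 encodes a mitochondrial outer membrane protein that recruits the autophagy machinery and is among the classic HIF targets. Its probe set 1422470_at gave 360.2 and 276.5 at 0 h, 664.4 and 672.2 at 6 h, 1217.8 and 1189.9 at 12 h, and 1408.3 and 1347.2 at 24 h. No 2 times overlapped. The log2 change was 1.01 ± 0.17 at 6 h (limma, adjusted p = 0.00559), 1.83 ± 0.17 at 12 h (adjusted p = 0.000106) and 2.02 ± 0.17 at 24 h (adjusted p = 1.63e-05), or 4.05-fold at 24 h. Between 12 h and 24 h it was not called, with a change of 0.19 (95% interval -0.18 to 0.56, adjusted p = 0.626). The 6 h call was lost without array 2 of 0 h (adjusted p = 0.0534).

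Bnip3l, also called Nix, is the close relative of Bnip3 that clears mitochondria in maturing red cells. On the 3 probe sets that it shares with Bnip3l-ps the signals were far above the filter. Probe set 1416922_a_at gave 2226.7 and 1909.0 at 0 h, 2343.2 and 2004.0 at 6 h, 2537.2 and 2535.6 at 12 h, and 3502.6 and 3870.1 at 24 h. It was higher at 24 h by 0.83 ± 0.17 (limma, adjusted p = 0.00295), and the other 2 were higher by 0.62 ± 0.16 (1416923_a_at, adjusted p = 0.00956) and 0.98 ± 0.20 (1448525_a_at, adjusted p = 0.00315). At 12 h the last 2 were called (adjusted p = 0.0239 and 0.0266), a call each lost without either 12 h array or array 1 of 0 h, and 1416923_a_at also without array 2 of 0 h, with an adjusted p of at most 0.125 for 1416923_a_at and 0.189 for 1448525_a_at. None was called at 6 h, where limma gave an unadjusted p of 0.201 to 0.682, so 0 were under 0.05. Transcripts of Bnip3l and of the pseudogene cannot be told apart with these probes.

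Of the 2 oxygen sensors among the members, Egln3 rose and Egln1 fell on 1 of its 2 probe sets. Egln3 (PHD3) is a prolyl hydroxylase that HIF itself induces strongly. Probe set 1418649_at gave 7.5 and 36.3 at 0 h, 41.0 and 56.6 at 6 h, 119.8 and 132.0 at 12 h, and 182.7 and 173.2 at 24 h. The arrays of successive times did not overlap, but only those of 24 h were above the median of all values. The log2 change was 0.63 ± 0.24 at 6 h (limma, adjusted p = 0.12), 1.60 ± 0.24 at 12 h (adjusted p = 0.000984) and 2.01 ± 0.24 at 24 h (adjusted p = 0.000133). Both 12 h arrays lay above both 6 h arrays, and that step of 0.97 had an adjusted p of 0.0631, or 0.032 with the replicate number as a block and 0.037 and 0.0369 without array 1 or array 2 of 0 h. At 6 h it was called without array 2 of 0 h, by 1.03 (0.0385). The second probe set, 1418648_at, ranged from 4.3 to 90.3, under the median on all 8 arrays; fitted without the filter it changed by 0.74 ± 0.40 at 24 h (adjusted p = 0.254), with the 24 h arrays at 90.3 and 28.5 and the 0 h arrays at 4.3 and 41.6.

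Egln1 (PHD2) is the main prolyl hydroxylase of HIF in most cells. Probe set 1423785_at gave 928.9 and 736.1 at 0 h, 820.9 and 811.1 at 6 h, 692.0 and 500.5 at 12 h, and 541.8 and 482.8 at 24 h. Both 24 h arrays lay below both 0 h arrays, and the log2 change was -0.66 ± 0.20 (limma, adjusted p = 0.0197), a 1.58-fold fall. This call was lost without array 1 of 0 h (adjusted p = 0.14) or array 2 of 24 h (0.1), and without the filter (0.0615). Probe set 1451110_at gave 466.2 and 425.1 at 0 h, 465.7 and 330.9 at 6 h, 346.8 and 189.5 at 12 h, and 363.8 and 220.5 at 24 h. Its change at 24 h was -0.59 ± 0.29 (adjusted p = 0.121), and array 2 was the lower of the pair at all 4 times. With the replicate number as a block, that probe set was called lower at 24 h (adjusted p = 0.0207) and both were called lower at 12 h (0.0382 for 1423785_at and 0.012 for 1451110_at), where the fit without it gave 0.0945 and 0.0824.

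P4ha1 encodes the catalytic alpha subunit of collagen prolyl 4-hydroxylase, an enzyme that uses oxygen to modify collagen. Probe set 1426519_at gave 204.2 and 218.6 at 0 h, 296.4 and 250.1 at 6 h, 376.8 and 359.3 at 12 h, and 552.1 and 366.7 at 24 h. Probe set 1452094_at gave 380.7 and 313.7 at 0 h, 435.2 and 434.6 at 6 h, 468.8 and 439.5 at 12 h, and 698.5 and 598.5 at 24 h. Both were above their 0 h arrays at every later time. At 24 h they were higher by 0.99 ± 0.20 and 0.84 ± 0.17 (limma, adjusted p = 0.00294 and 0.00262), and neither call was lost when 1 array was left out. At 12 h only 1426519_at was called, by 0.72 ± 0.20 (adjusted p = 0.021), and it failed without any 1 of the 4 arrays at 0 h and 12 h (adjusted p = 0.07 to 0.102). Over 17 changes of the processing or of the arrays fitted, the 12 h call of 1426519_at was lost in 5. P4ha2, the sister subunit, was higher by 0.76 ± 0.22 at 24 h (adjusted p = 0.0162), and was named after its value was seen.

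Vegfa encodes the main growth factor of blood vessels. Its signals were low. Probe set 1420909_at gave 68.9 and 82.0 at 0 h, 69.0 and 104.1 at 6 h, 129.6 and 82.1 at 12 h, and 157.8 and 179.3 at 24 h. Probe set 1451959_a_at gave 92.5 and 65.6 at 0 h, 133.1 and 131.8 at 6 h, 146.9 and 87.8 at 12 h, and 120.2 and 176.3 at 24 h. Both 24 h arrays lay above both 0 h arrays on each, and the times between overlapped more. The 24 h changes were 0.90 ± 0.22 (limma, adjusted p = 0.00696) and 0.69 ± 0.23 (adjusted p = 0.0347). The first failed without array 1 of 0 h (0.0511), and the second without array 2 of 0 h (0.201), without the filter (0.0982), with a larger pseudocount (0.0584), after quantile normalization (0.0733) and with a trended, robust variance (0.0606).

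Hif1a passed in no comparison with 0 h on any of its 3 tested probe sets. Probe set 1427418_a_at gave 1721.6 and 2143.9 at 0 h, 2558.2 and 1283.2 at 6 h, 2496.2 and 1309.8 at 12 h, and 2390.8 and 2296.8 at 24 h. Array 1 was far above array 2 at 6 h and at 12 h, and below it at 0 h. The change at 24 h was 0.28, with a 95% interval from -0.47 to 1.03, which leaves room for a change of either sign. For 1416035_at, which lay between 264.8 and 370.2 on all arrays, the interval at 24 h was -0.54 to 0.25. Probe set 1448183_a_at gave 281.4 and 285.7 at 0 h, 227.2 and 216.1 at 6 h, 315.8 and 300.7 at 12 h, and 380.1 and 351.9 at 24 h. It was lowest at 6 h and highest at 24 h, with a change at 24 h against 0 h of 0.33 (interval -0.01 to 0.67, adjusted p = 0.101). Against 6 h it was higher at 24 h by 0.65 ± 0.15 (limma, adjusted p = 0.0128), a call lost without array 1 of 24 h (0.0755) or array 2 of 6 h (0.0554). The 3 probe sets followed each other poorly, at r = 0.062 to 0.684 over the 8 arrays, and the fourth, 1431981_at, had signals of 12.1 to 51.6.

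Higd1a encodes a small protein of the inner mitochondrial membrane that HIF induces in low oxygen. Probe set 1416480_a_at gave 1082.2 and 1336.4 at 0 h, 1186.9 and 1297.4 at 6 h, 1281.1 and 1293.9 at 12 h, and 858.4 and 908.7 at 24 h. The 24 h arrays were the lowest of the 8, and the change against 0 h was -0.43 ± 0.17 (limma, adjusted p = 0.0574), just short of the threshold. It was called lower with the replicate number as a block (adjusted p = 0.0298), with a trended, robust variance (0.0372), with a larger pseudocount (0.0401) and with 1 probe set per gene (0.0487). The other 2 probe sets stayed under the median of all values, at 46.3 to 138.0 and at 16.3 to 35.6.

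Adm encodes adrenomedullin, a vessel-dilating peptide and a strong HIF target in many cells. Its 1 probe set, 1416077_at, gave 6.7 and 3.0 at 0 h, 18.9 and 30 at 6 h, 10.7 and 20.4 at 12 h, and 8.7 and 17.1 at 24 h. All later arrays lay above both 0 h arrays, but all 8 were below the pseudocount of 32, where differences weigh little on the log2 scale. Fitted without the filter, it was not called at any time (limma, adjusted p = 0.171, 0.301 and 0.387).

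Set against 6 h in place of 0 h, 11 member probe sets were called higher at 24 h and 1 lower, where 10.6% and 12.8% of all probe sets were. They were the 5 of Ndrg1, the 2 of P4ha1, and 1 each of Bnip3, Egln3, Vegfa and Hif1a, with Egln1 lower. The largest of them was Ndrg1 1423413_at at 2.34 ± 0.19 (limma, adjusted p = 5.1e-05), and the smallest call was P4ha1 1452094_at at 0.54 ± 0.17 (adjusted p = 0.0414), which failed without any 1 of the arrays at 6, 12 or 24 h (adjusted p = 0.0566 to 0.204). The plot of log2 changes gives each change against 0 h with its error.

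**Figure D3:**
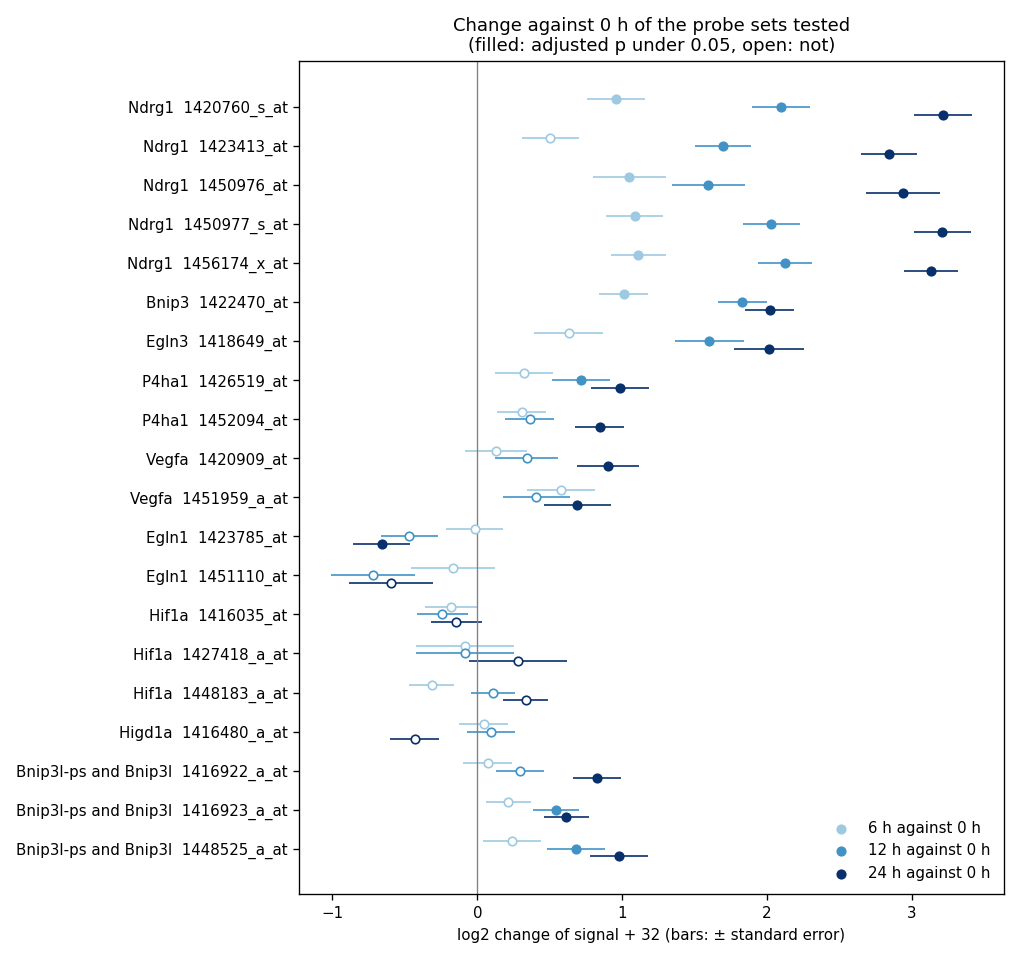
Change in log2(signal + 32) at 6, 12 and 24 h, each against 0 h, for the 17 member probe sets tested and the 3 shared by Bnip3l-ps and Bnip3l, with bars of ± 1 standard error of the fit. Filled points passed an adjusted p of 0.05 in limma and open points did not. Ndrg1, Bnip3 and Egln3 reach 2.01 to 3.22 at 24 h, the Hif1a points are all open, and those of Egln1 lie to the left of 0.

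The machinery that controls HIF was followed through 19 further genes, of which 14 were on the array and 12 were tested. At 6 h 0 were called higher in limma and 3 lower, at 12 h 1 higher and 3 lower, and at 24 h 2 higher and 2 lower. With the replicate number as a block, 3 were higher at 12 h and 4 at 24 h. Without 1 array, the number lower ranged from 0 to 3 at 6 h, 1 to 3 at 12 h and 0 to 2 at 24 h, and the number higher from 0 to 2 at 12 h and 0 to 3 at 24 h. Over all 7340 genes, 7.83%, 17.2% and 23.5% were called higher and 5.53%, 16.6% and 22.6% lower. Those shares are without the block, where 1994 of all probe sets were higher at 12 h and 2751 at 24 h. With the block these numbers were 2441 and 3175. No gene of the list had an unadjusted p under 0.05 as a rise at 6 h. The 3 that fell at 6 h were Crebbp, a histone acetyltransferase and coactivator of HIF, by -1.24 ± 0.23, the third prolyl hydroxylase Egln2 by -0.71 ± 0.18, and Siah1a, a ubiquitin ligase that targets prolyl hydroxylases, by -0.69 ± 0.19 (adjusted p = 0.00843, 0.0323 and 0.0421). Crebbp and Siah1a were also lower at 24 h, by -0.89 ± 0.23 and -0.69 ± 0.19 (adjusted p = 0.01 and 0.0142), and at 12 h, by -0.87 ± 0.23 and -0.95 ± 0.19 (0.0159 and 0.00441). The probe set of Siah1a carries the s suffix described above. Crebbp passed the filter through both arrays of 0 h, at 280.8 and 195.3, and 1 other, at 144.8. Its higher level at 0 h was thus part of how it entered the test. Egln2 fell at 12 h too, by -0.54 ± 0.18 (adjusted p = 0.0444), but changed by -0.46 ± 0.18 at 24 h (adjusted p = 0.0646, or 0.0429 with the replicate number as a block and 0.0252 without array 1 of 24 h).

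Cited2, which competes with HIF for its coactivators and is induced by HIF, was higher by 0.60 ± 0.20 at 12 h and 0.82 ± 0.20 at 24 h (limma, adjusted p = 0.0399 and 0.00714). Hif3a, an alpha subunit with forms that inhibit the others, was higher at 24 h by 0.54 ± 0.18 (adjusted p = 0.0313). The partner of HIF alpha, Arnt, changed by 0.58 ± 0.22 at 24 h (adjusted p = 0.056, or 0.0363 with the replicate number as a block, 0.0278 without array 1 of 0 h and 0.04 and 0.0401 without either array of 6 h), and Vhl by -0.12 ± 0.17 (adjusted p = 0.606). The whole list ranged from -0.89 to 0.82 at 24 h, with a median of 0.13 beside 0.04 over all genes tested. Each of these calls but those of Crebbp at 6 h and Siah1a at 12 h was lost when some 1 array was left out. At 6 h Egln2 (0.0872 to 0.146) and Siah1a (0.0534 to 0.201) failed without any 1 of the 4 arrays at 0 h and 6 h. At 12 h Egln2 failed without any 1 array of 0, 6 or 12 h (0.0505 to 0.16), Crebbp without array 1 of 12 h (0.0791), and Cited2 without array 1 of 12 h (0.241) or array 2 of 0 h (0.237). At 24 h the arrays were array 2 of 24 h for Crebbp (0.0874), array 1 of 0 h or of 24 h for Siah1a (0.0853 and 0.0897), array 1 of 24 h or array 2 of 0 h for Cited2 (0.0505 and 0.0648), and either array of 24 h or array 2 of 0 h for Hif3a (0.0585 to 0.201).

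Of 14 tested genes of glucose uptake and glycolysis that are known targets, 3 were called higher and 0 lower at 6 h, 7 and 2 at 12 h, and 8 and 3 at 24 h. At 24 h this was 57.1% higher and 21.4% lower, against 23.5% and 22.6% of all genes. Of all genes, 7.83% were higher at 6 h and 17.2% at 12 h, with 5.53% and 16.6% lower. Eno2 of this list passed the filter only through both 24 h arrays, at 197.7 and 193.7. A rise at 24 h was thus part of how it entered the test. Without 1 array, the number higher ranged from 4 to 7 and the number lower from 1 to 2 at 12 h, and from 6 to 8 and 2 to 3 at 24 h. At 6 h 1 fall had an unadjusted p under 0.05 in limma, that of Pgk1, a phosphoglycerate kinase named after its value was seen. Pfkp, the platelet-type phosphofructokinase, rose by 2.97 ± 0.16 at 24 h (adjusted p = 2.68e-06), Pfkfb3, which makes an activator of that enzyme, by 1.85 ± 0.16 (2.05e-05) and Aldoc, an aldolase, by 1.61 ± 0.20 (0.000157). Pfkp and Pfkfb3 passed the filter only through arrays after 0 h, with 0 h signals of 67 and 53 and of 129.2 and 133.5. Slc2a1, the glucose transporter GLUT1, rose by 1.20 ± 0.18 at 6 h (0.00353) and was still higher by 1.16 ± 0.18 at 24 h (0.000618). Hk2, the hexokinase that HIF induces, fell by 1.25 on the log2 scale at 24 h (0.000804), as did the liver-type phosphofructokinase Pfkl by 0.93 (0.000888) and the lactate dehydrogenase subunit Ldha by 0.52 (0.0245). The fall of Ldha failed without array 2 of 0 h or either array of 24 h (0.0571 to 0.147).

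Of 25 tested genes among further HIF targets, 3 were called higher and 4 lower at 6 h, 6 and 4 at 12 h, and 7 and 4 at 24 h. At 6 h the shares were 12.0% higher and 16.0% lower, beside 7.83% and 5.53% of all genes. At 12 h they were 24.0% and 16.0%, beside 17.2% and 16.6%, and at 24 h 28% and 16.0%, beside 23.5% and 22.6%. At 12 h and 24 h the list thus stood little apart from all genes. Without 1 array, the number higher ranged from 0 to 4 at 6 h, 3 to 6 at 12 h and 5 to 7 at 24 h, and the number lower from 1 to 3, 2 to 5 and 2 to 5. With the replicate number as a block, 5 were higher at 6 h and 8 lower at 24 h. Over all probe sets the block raised the number higher at 6 h from 831 to 1247. It raised the number lower at 24 h from 2736 to 3143. Mxi1, which antagonises Myc, was higher by 1.52 ± 0.22 at 24 h (limma, adjusted p = 0.00045), Plod1, a collagen lysyl hydroxylase, by 1.45 ± 0.24 (0.000916) and Selenbp1, a selenium-binding protein of differentiated epithelium, by 1.42 ± 0.21 (0.000447). In the other direction, Bhlhe40, a transcription repressor and HIF target, was lower at 6 h by -1.57 ± 0.22 (0.00252). At 12 h it was lower by -1.36 ± 0.22 (0.00133), as were Vldlr by -0.92 ± 0.21 (0.00836) and Hilpda by -0.76 ± 0.21 (0.0206). Without 1 array, Vldlr ranged from -1.05 to -0.79 and Hilpda from -0.98 to -0.54, and neither call held in every such fit. The probe set of Vldlr carries the x suffix described above. Pgm2 had the largest rise of the list at 12 h, by 1.47 ± 0.18 (0.000405). At 24 h Bhlhe40 changed by -0.48 ± 0.22 (0.0949). Igfbp3 (-0.94 ± 0.20), Stc2 (-0.91 ± 0.21) and the transferrin receptor Tfrc (-0.71 ± 0.15) were lower at 24 h (adjusted p = 0.00369, 0.0063 and 0.00405). Stc2 passed the filter only through the arrays of 0 h, at 144.8 and 177.9, so its higher level there was how it entered the test. Plod1 passed only through the arrays of 12 h and 24 h, with 70.6 and 56.2 at 0 h. Selenbp1, on a probe set with the s suffix described above, passed only through arrays after 0 h. At 0 h it had 74.2 and 95.5. A higher level at later times was thus part of how Plod1 and Selenbp1 entered the test. The median of this list at 24 h was 0.08 beside 0.04 over all genes tested, against 0.65 for the glycolytic list.

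Among 11 tested relatives and partners of the members, 2 were called higher and 0 lower at 6 h, 4 and 2 at 12 h, and 6 and 3 at 24 h, with 0 lower at 6 h also at an unadjusted p under 0.05 in limma. With the replicate number as a block, 4 were higher at 6 h, as were 1247 of all probe sets (831 without it). Without 1 array, the number higher ranged from 0 to 3 at 6 h, 3 to 4 at 12 h and 4 to 6 at 24 h, and the number lower from 0 to 2 at 12 h and 1 to 3 at 24 h. The background is the 7.83%, 17.2% and 23.5% higher and the 5.53%, 16.6% and 22.6% lower of all genes at 6, 12 and 24 h. The rises were those of Ndrg2, Ndrg3, Ndrg4 and P4ha2, given above, of the Higd1a relative Higd2a (0.77 ± 0.16, adjusted p = 0.00282) and of the mitophagy kinase Pink1 (0.88 ± 0.29, adjusted p = 0.0318), the last 2 named after their values were seen. Of the genes that share mitochondrial or BCL2-interacting roles with Bnip3, Phb2 was lower at 24 h by -0.72 ± 0.15 (adjusted p = 0.00414), Bnip1 by -0.70 ± 0.20 (0.0153) and Bnip2 by -0.52 ± 0.18 (0.0381). The probe set of Phb2 carries the x suffix described above. Bnip1 passed the filter through both arrays of 0 h and 1 of 6 h. The calls of Bnip1 and Bnip2 failed without either array of 0 h or array 2 of 24 h (0.0638 to 0.256). Fundc1, a mitophagy receptor of hypoxic cells, changed by -0.38 ± 0.16 at 24 h (0.0873) after a change of -0.67 at 12 h (0.0123), a call lost without array 2 of 0 h (0.0789) or array 2 of 12 h (0.0691).

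Of the partners of Vegfa and Adm, 6 of 15 were tested, with 1 called higher and 0 lower at 6 h, and 2 higher and 2 lower at 12 h and at 24 h. These were 16.7% higher at 6 h and 33.3% each way at 12 h and 24 h. Of all genes, 7.83%, 17.2% and 23.5% were higher and 5.53%, 16.6% and 22.6% lower at 6, 12 and 24 h. At 6 h an unadjusted p under 0.05 was reached in limma by 1 fall, that of Nrp2 (adjusted p = 0.0602). With the replicate number as a block 1 was called lower at 6 h, as were 982 of all probe sets (624 without it). Without 1 array, the number higher ranged from 1 to 2 and the number lower from 0 to 3 at 12 h, and 2 were higher and 2 to 3 lower at 24 h. Ramp3, which turns the calcitonin receptor-like receptor into a receptor of adrenomedullin, had 2417.1 and 2000.5 at 24 h against 222.8 and 171.7 at 0 h, a rise of 3.29 ± 0.18 (adjusted p = 2.68e-06). Flt4, the receptor of VEGF-C and VEGF-D, was higher by 0.90 ± 0.18 (0.00254). Vegfb, a relative of Vegfa, was lower by -1.43 ± 0.19 (0.000238) and the coreceptor Nrp1 by -0.99 ± 0.24 (0.00708). Vegfa and Vegfb moved in opposite directions at 24 h, Vegfa up and Vegfb down.

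**Figure D4:**
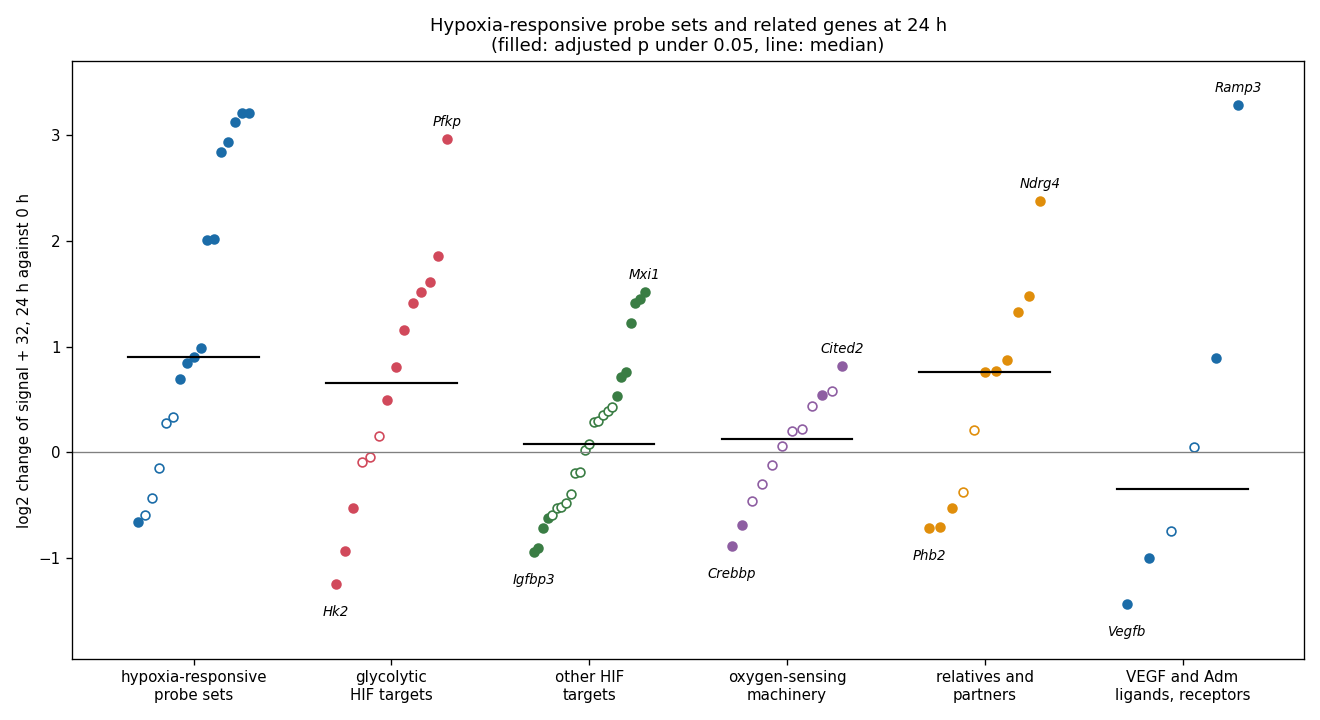
Change in log2(signal + 32) at 24 h against 0 h for the 17 hypoxia-responsive probe sets and for the tested genes of 5 related lists, 1 probe set per gene, ordered within each list. Filled points passed an adjusted p of 0.05 in limma, open points did not, and the black line is the median of a list. The medians are 0.90 for the hypoxia-responsive probe sets, 0.65 for the glycolytic targets, 0.08 for the other targets, 0.13 for the oxygen-sensing machinery, 0.76 for the relatives and -0.35 for the VEGF and adrenomedullin genes.

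Over the 8 arrays, the probe sets most like Ndrg1 1420760_s_at were those of Adam8 (r = 0.999) and Lancl1 (0.998), and those most like Bnip3 were Nicn1 and Tor1aip2 (0.996 each). Egln3 was most like Rfk (0.992) and Entpd2 (0.991), Egln1 like Slmap (0.977) and Ephx1 (0.975), and P4ha1 like Ctsb (0.979) and Akr1c13 (0.976). Higd1a was most like Pdia6 (0.982) and Fasn (0.961), Vegfa like Nlk (0.964) and Pald1 (0.954), and Hif1a like Pja1 (0.972) and Cpeb2 (0.963). These are the highest correlations among all tested probe sets of 1 gene that is no member, over 8 arrays that share 4 times, and are a description.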

How the data were processed

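The files held 1 signal per probe set for each of the 8 arrays, from the Affymetrix Mouse Expression Array 430A. Per the deposited values, these are linear intensities scaled by the authors to 1 level, since the mean after trimming 2% from each end was 500.2 on every array; no source used here names the summarising software. No further normalization was applied. Gene names came from GEO's platform annotation, which gives 1 gene for 20393 probe sets and several for 691.

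In R 4.3.3, limma 3.58.1 (lmFit, eBayes) was fitted to log2(signal + 32) of all 8 arrays with 1 term per time, after leaving out 64 control probe sets and the filter on low signals, for 6 pairs of times. P-values were adjusted over all 12440 probe sets; the residual degrees of freedom were 4 and the prior ones 6.25. All comparisons with 0 h share the 0 h arrays. The fit was tested on simulated data.

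The genes, their lists and the rule for named genes were chosen with earlier results of these data known. All probe sets of the 10 genes are named. From 5 related lists, the 3 called genes with the largest rise and fall at 24 h are named, by the tested probe set with the highest mean. Of the genes that the same rule gave at 6 h and 12 h, only a part is named. From the oxygen-sensing list, tested genes are also given by their range. Likeness is the Pearson correlation with probe sets of 1 gene.

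Replicate numbers are in the labels without a stated meaning. Differences between array 1 and array 2 correlated at r = 0.146 to 0.391 over all 6 pairs of times, which was taken as pairing by number, from the data and not from the labels. Alternatives changed the pseudocount (a smaller and a larger one), the filter, the normalization, the variance model, the replicate block, the arrays fitted and the unit tested, and left out each array.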

Additional observations from a re-analysis of the deposited data

Results flagged for a closer look

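Differences between later times passed the limma test for 22 member results, each a change on the log2(signal + 32) scale that itself tests 1 time with butyrate against another. The 5 probe sets of Ndrg1 made up most of them. Between 6 h and 12 h the changes were 1.14 for 1420760_s_at, 1.19 for 1423413_at, 0.94 for 1450977_s_at and 1.01 for 1456174_x_at. Between 12 h and 24 h they were 1.12 for 1420760_s_at, 1.15 for 1423413_at, 1.34 for 1450976_at, 1.18 for 1450977_s_at and 1.004 for 1456174_x_at. At 24 h against 6 h they were 2.26 for 1420760_s_at, 2.34 for 1423413_at, 1.89 for 1450976_at, 2.12 for 1450977_s_at and 2.02 for 1456174_x_at (adjusted p at most 0.000618).

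Bnip3 was higher by 0.82 at 12 h against 6 h (adjusted p = 0.0366) and by 1.01 at 24 h against 6 h (0.00216). The other results were all at 24 h against 6 h: Egln3 1418649_at was higher by 1.38 (0.00261), Vegfa 1420909_at by 0.77 (0.027), P4ha1 1426519_at by 0.67 (0.0368) and 1452094_at by 0.54 (0.0414), and Hif1a 1448183_a_at by 0.65 (0.0128), whereas Egln1 1423785_at was lower by -0.64 (0.0385). The Egln1 call failed without any 1 of the arrays at 6 h and 24 h (0.0858 to 0.166) and without the filter (0.11). The Vegfa call failed without array 1 of 6 h (0.155), without the filter (0.0894) and with a trended, robust variance (0.0584). P4ha1 1426519_at failed without array 1 of 24 h (0.247), either array of 6 h (0.0611 and 0.151) or either array of 0 h (0.0538 and 0.0537).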

How the results depend on the processing

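The limits are 2 arrays per time, no untreated cells at later times and probe sets that overlap in what they measure. Over 102 single probe set results and their alternatives, 1563 of 1710 values kept direction and side of the threshold, 102 no longer passed, 17 newly passed and 28 changed sign. None of the 28 was a called result, and the lowest adjusted p after the change of sign was 0.49. When 1 array is left out, the lone array of its time is assumed to vary like the others. Except where stated, the cause was not tested.

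Member probe sets called higher numbered 5 at 6 h, and 2 without the filter and 2 with 1 probe set per gene, which tests fewer probe sets. At 12 h they numbered 8, and 3 with 1 per gene. At 24 h they numbered 11, and 5 with 1 per gene. At 12 h against 6 h the 5 became 3 with a pseudocount of 8, 0 without the filter, 3 with 1 per gene and 2 with the 4 arrays compared alone. At 24 h against 12 h the 5 became 0 without the filter and 1 with 1 per gene. At 24 h against 6 h the 11 became 4 with 1 per gene. The numbers called lower were 0 at 12 h, 1 at 24 h and 1 at 24 h against 6 h. At 12 h this became 1 with the 4 arrays alone. At 24 h it became 2 with the larger pseudocount, 0 without the filter, 2 with 1 per gene and 2 with a trended, robust variance. At 24 h against 6 h it became 2, 0 and 2 with that pseudocount, without the filter and with that variance.

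With the replicate number as a block, which pairs the arrays, 2 members were called lower at 12 h, 3 at 24 h and 2 at 24 h against 6 h, where the second was Higd1a (-0.48, adjusted p = 0.032). Among the single probe sets of the 10 genes, the block changed no call beyond this one and those given with the results. Of all probe sets 1247 were called higher and 982 lower at 6 h, 320 and 405 at 12 h against 6 h, and 317 and 563 at 24 h against 12 h. The numbers without the block were 831 and 624, 156 and 145, and 155 and 367. At 12 h, 2407 of the 12440 probe sets tested were called lower with the block and 1980 without it. At 24 h, 3143 were lower with the block and 2736 without it, so the block added calls over all probe sets too.

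Over all probe sets, leaving out the filter gave 282 higher and 152 lower at 6 h, 1300 lower at 12 h (1980 with it), 8 and 4 at 12 h against 6 h, 22 and 98 at 24 h against 12 h, and 878 and 935 at 24 h against 6 h (1318 and 1589 with it). With 1 per gene there were 1281 lower at 12 h, 1806 higher and 1724 lower at 24 h (2751 and 2736 in all probe sets) and 1029 lower at 24 h against 6 h. At 12 h against 6 h, the 4 arrays alone gave 50 and 23, the larger pseudocount gave 238 lower and a trended, robust variance 234 lower.

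Leaving out 1 array in turn gave 289 to 772 higher and 134 to 599 lower at 6 h, 1197 to 2057 and 1032 to 2036 at 12 h, 29 to 109 and 16 to 120 at 12 h against 6 h, 17 to 168 and 119 to 374 at 24 h against 12 h, and 658 to 1230 and 971 to 1507 at 24 h against 6 h. Members called higher ranged from 2 to 5 at 6 h, 0 to 5 at 12 h against 6 h and at 24 h against 12 h, and 6 to 10 at 24 h against 6 h, and members called lower from 0 to 1 at 12 h, 24 h and 24 h against 6 h.

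The changes of sign were in small, uncalled changes. Hif1a 1427418_a_at at 12 h against 6 h was -0.003 and became 0.011 after quantile normalization. With 1 array left out it ranged from -0.571 to 0.407 at 6 h, -0.54 to 0.37 at 12 h, -0.49 to 0.49 at 12 h against 6 h, -0.09 to 0.82 at 24 h against 12 h and -0.13 to 0.85 at 24 h against 6 h. Hif1a 1416035_at ranged from -0.24 to 0.119, -0.081 to 0.278 and -0.072 to 0.147 in the last 3. At 6 h the ranges were -0.04 to 0.18 for Bnip3l-ps and Bnip3l 1416922_a_at, -0.18 to 0.14 for Egln1 1423785_at, -0.395 to 0.061 for Egln1 1451110_at, -0.10 to 0.19 for Higd1a and -0.087 to 0.344 for Vegfa 1420909_at. Higd1a ranged from -0.053 to 0.244 at 12 h and -0.011 to 0.114 at 12 h against 6 h, where Vegfa 1420909_at ranged from -0.039 to 0.463 and 1451959_a_at from -0.17 to 0.12. At 24 h against 12 h the ranges were -0.414 to 0.029 and -0.26 to 0.51 for Egln1 1423785_at and 1451110_at, -0.005 to 0.546 for P4ha1 1426519_at and -0.007 to 0.509 for Vegfa 1451959_a_at. Cul2, a subunit of the von Hippel-Lindau ligase, ranged from -0.051 to 0.17 at 24 h.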
